A study of Homo sapiens with 2 samples.

Results

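The apolipoprotein L family was followed through 5 genes, APOL1, APOL2, APOL3, APOL4 and APOL6. Its members were all probe sets whose only gene symbol in the platform annotation was 1 of these 5, which gave 11 probe sets of 54613 on the array, and 5 genes of 19775 with a probe set of their own. The cells were hTERT-RPE1, a human line from retinal pigment epithelium that was immortalised with the telomerase gene and forms a primary cilium in culture. They were grown with 10% fetal bovine serum and 0.01 mg/ml hygromycin B, and a lipid reagent carried in the miR-129-3p oligo or, for comparison, a control oligo. Total RNA was taken after 72 h, and 100 ng of it was labelled with biotin for an Affymetrix array, 1 array for each oligo. With n = 1 per oligo no difference has a replicate error and none was tested, so each compares these 2 arrays and not the conditions.

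Apolipoprotein L proteins carry amphipathic helices and bind membranes. They form a family separate from the classical apolipoproteins of lipoproteins, encoded in a cluster of neighbouring genes on human chromosome 22. APOL1 is secreted, circulates on high-density lipoprotein and kills trypanosomes by forming pores, while most other members act inside the cell. Type I and type II interferons are known to raise several of the genes in epithelial and endothelial cells.

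The labels name the transfected oligo as M129 in the title and as miR-129-3p in the genotype field, and no further. Human genes encode a pair of mature microRNAs of that arm, shown here because they define the treatment on which each value below depends. RefSeq places hsa-miR-129-1-3p at chr7:128207920-128207941 and hsa-miR-129-2-3p at chr11:43581450-43581471, both on the plus strand of GRCh38.p14. Capitals mark the seed, bases 2 to 8 from the 5′ end, which pairs with target transcripts.
hsa-miR-129-1-3p: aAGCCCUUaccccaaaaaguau
hsa-miR-129-2-3p: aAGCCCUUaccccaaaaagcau
They are both 22 bases long, share the seed and differ at 1 base, position 20, so the seed does not depend on which was used. Targeting of the APOL transcripts was not analysed here.

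Signals of 4 of the 5 genes were higher with miR-129-3p. APOL3, APOL6, APOL1 and 1 of the probe sets for APOL2 were 3.41-fold to 15.96-fold higher, and APOL4 differed by less than 1.5-fold on all of its probe sets. A signal is the deposited linear intensity, and a difference is log2(signal + 16) on the miR-129-3p array minus the same on the control array, a scale that understates the change of dim genes. Folds are on that scale unless another is named. In all, 7 of the 11 probe sets were at least 2-fold higher and 0 lower by that much. Over all probe sets whose brighter signal was 100 or more, 7.24% were higher by 2-fold or more and 4.57% lower by as much. Each gene was then represented by the probe set of highest mean level, and 4 of 5 genes were at least 2-fold higher and 0 lower by that much. Of all genes above the same signal, 7.83% were higher and 4.56% lower by 2-fold. The median over the 5 genes was 2.32, and over all 12754 such genes it was 0.03.

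The signal rule bears on these counts. Of the 11 probe sets, 10 reached 100 on the brighter array, and 5 of those did so with miR-129-3p alone, so those 5 could only differ upward. Of the 5 probe sets that reached 100 on the control array, 3 were at least 2-fold higher, 1 each for APOL1, APOL2 and APOL6. Among all probe sets with that control signal, 4.97% were.

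**Figure D1:**
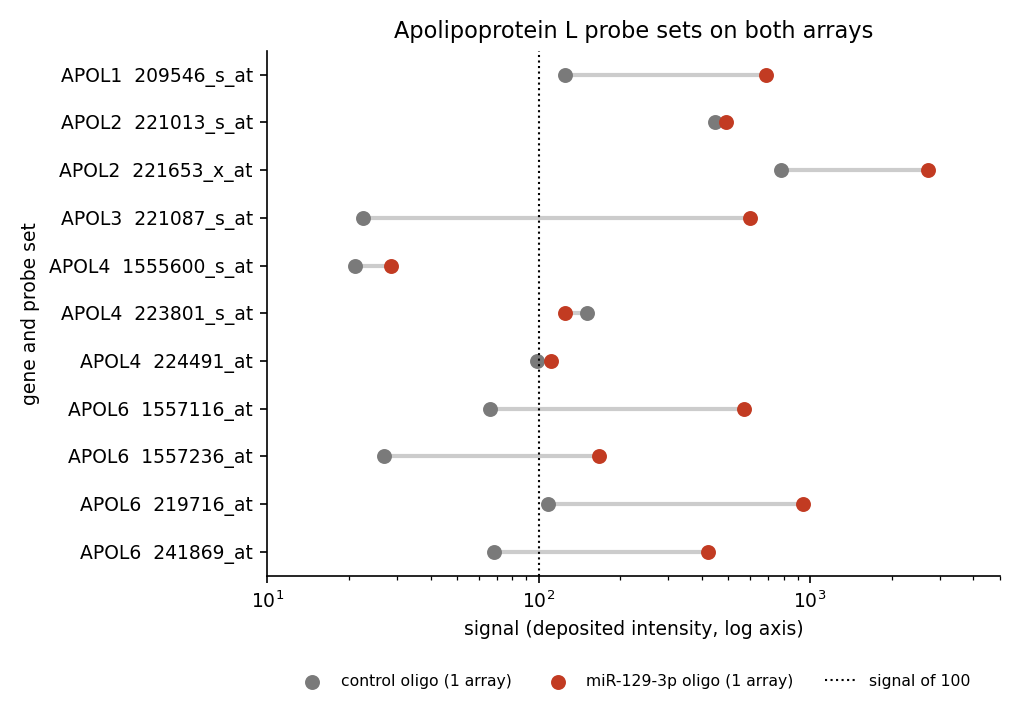
Signal (deposited intensity, log axis) of each of the 11 apolipoprotein L probe sets on the control array (grey) and the miR-129-3p array (red), with a dotted line at a signal of 100. The long grey connectors belong to APOL3, APOL6, APOL1 and the APOL2 probe set 221653_x_at, and the 3 APOL4 probe sets and 221013_s_at of APOL2 have short ones.

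APOL1, the secreted trypanosome-lytic factor and a gene studied in kidney disease, was read by 1 probe set, 209546_s_at. Its signal was 125 on the control array and 689 on the miR-129-3p array, a log2 difference of 2.32, or 5.00-fold. The name ending _s_at marks probes that can match several transcripts, and no other APOL1 probe set was there to compare. Across genes with several probe sets above the signal rule, the log2 differences of probe sets of the same gene had a pooled SD of 0.37 over 6179 genes. That is a spread within these arrays and leaves out the spread between cultures. The APOL1 difference was 6.30 times this SD. The control signal lay above 57.2% of all probe sets on its array, and the miR-129-3p signal above 83.7% of those on the other.

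APOL2, an intracellular member found at the endoplasmic reticulum, was read by 2 probe sets that disagreed. On 221653_x_at the signal was 784 on the control array and 2710 on the miR-129-3p array, a difference of 1.77. On 221013_s_at it was 446 and 488, a difference of 0.12. The SD between the 2 differences was 1.16, against the pooled 0.37 for probe sets of one gene. The ending _x_at marks probes that may bind related transcripts. Which of the probe sets follows APOL2 was not tested, so the gene is uncertain. With 221653_x_at left out, an alternative chosen after seeing the data, APOL2 was no longer among the genes at least 2-fold higher and 3 of the 5 genes remained.

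APOL3 acts at the Golgi and, in interferon-treated cells, dissolves the membranes of bacteria in the cytosol. Its 1 probe set, 221087_s_at, read 22.6 on the control array and 600 on the miR-129-3p array. The difference was 3.996, or 15.96-fold. The control signal was higher than just 10.5% of all probe sets on its array, a range where the constant added sets much of the difference. With both signals floored at 100 and no constant added, APOL3 was 6.0-fold higher.

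APOL6, which can trigger cell death and has been placed on lipid droplets, was read by 4 probe sets, and all 4 were higher with miR-129-3p. The probe set 219716_at read 109 on the control array and 945 on the miR-129-3p array, a difference of 2.95. On 1557116_at the signals were 66.1 and 568, a difference of 2.83. These 2 gave 7.71-fold and 7.12-fold, and the remaining pair was somewhat smaller. On 241869_at the signals were 68.6 and 422, a difference of 2.37, and on 1557236_at 26.8 and 167, a difference of 2.09. The mean of the 4 was 2.56 with an SD of 0.40 between probe sets, close to the pooled SD of 0.37. None of the 4 names carries an _s_at or _x_at ending, which makes APOL6 the family member with the most separate readings here. With signals under 100 set to 100, 1557236_at fell below the 2-fold limit, at 0.66, while the other 3 stayed above it, from 1.92 to 2.95.

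APOL4 showed no difference of this size. On 223801_s_at its signal was 151 on the control array and 125 on the miR-129-3p array, a difference of -0.24, and on 224491_at it was 98.3 and 111, a difference of 0.15. The third probe set, 1555600_s_at, stayed under the signal rule on both arrays, at 21.0 and 28.5. The SD over the 3 differences was 0.27, and each was within the pooled SD of 0.37. The deposited values carry no detection call, so whether APOL4 RNA was present at all was not analysed here. APOL5, another gene of the human cluster and no member by the rule, read 112 on the control array and 84.4 on the miR-129-3p array on 220478_at.

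**Figure D2:**
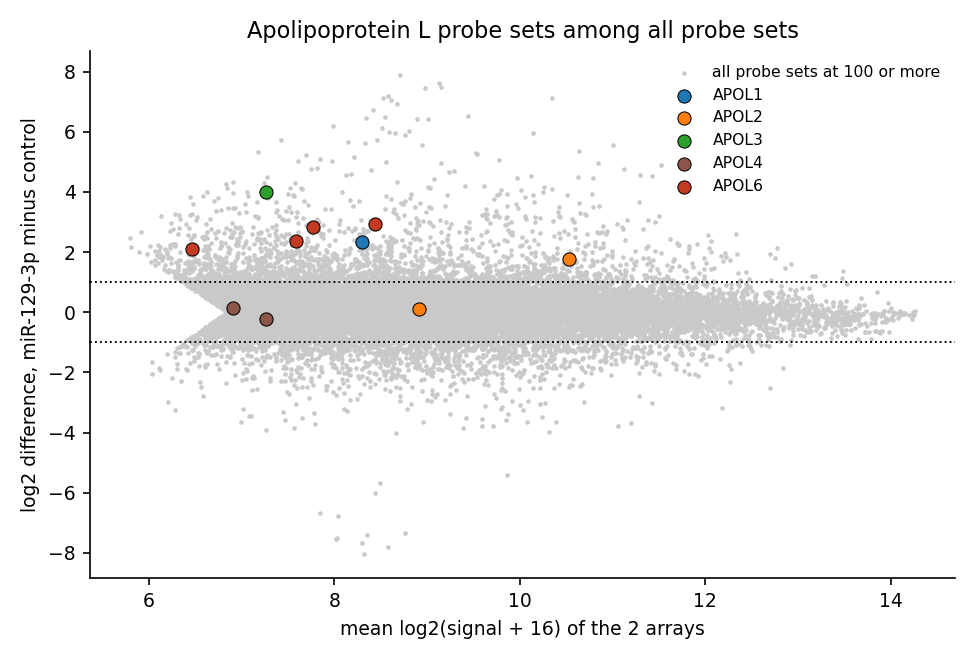
Log2 difference (miR-129-3p minus control) against mean log2(signal + 16) for the 28782 probe sets that reached a signal of 100 (grey), with the apolipoprotein L probe sets among them in colour and dotted lines at 2-fold. APOL3 lies highest at 3.996, the APOL6 and APOL1 points lie between 2.09 and 2.95, the APOL2 points lie apart at 0.12 and 1.77, and both APOL4 points lie near 0.

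Genes beside the family on chromosome 22 were compared next. In the RefSeq order of protein-coding genes the cluster runs APOL6, APOL5, RBFOX2, APOL3, APOL4, APOL2, APOL1, with MB before it and MYH9 after it. RBFOX2, a splicing regulator that lies inside the cluster, was read by 4 probe sets with differences of -0.60 to -0.31. MB, the oxygen-binding myoglobin gene, read 150 on the control array and 122 on the miR-129-3p array. MYH9, the non-muscle myosin heavy chain gene next to APOL1, read 1811 on the control array and 423 on the miR-129-3p array on its 1 probe set, a difference of -2.06. Adjacent APOL1 and MYH9 thus lay on opposite sides of 0.

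Over the 11 other genes from TOM1 to CACNG2, 10 had a signal of 100 or more. Of these 0 were higher by 2-fold and 2 were lower by 2-fold, MYH9 and MCM5, a subunit of the replicative helicase. With 7.83% of all genes higher by 2-fold, a count of 0 higher among 10 genes is near the background. The 2 lower genes of 10 are a larger share than the 4.56% of all genes, but the count is small and was not tested. Their differences ran from -2.06 to 0.37 with a median of -0.29, against the median of 0.03 over all genes. MCM5 stood at -1.01 on its brighter probe set and at -0.71 on the other.

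**Figure D3:**
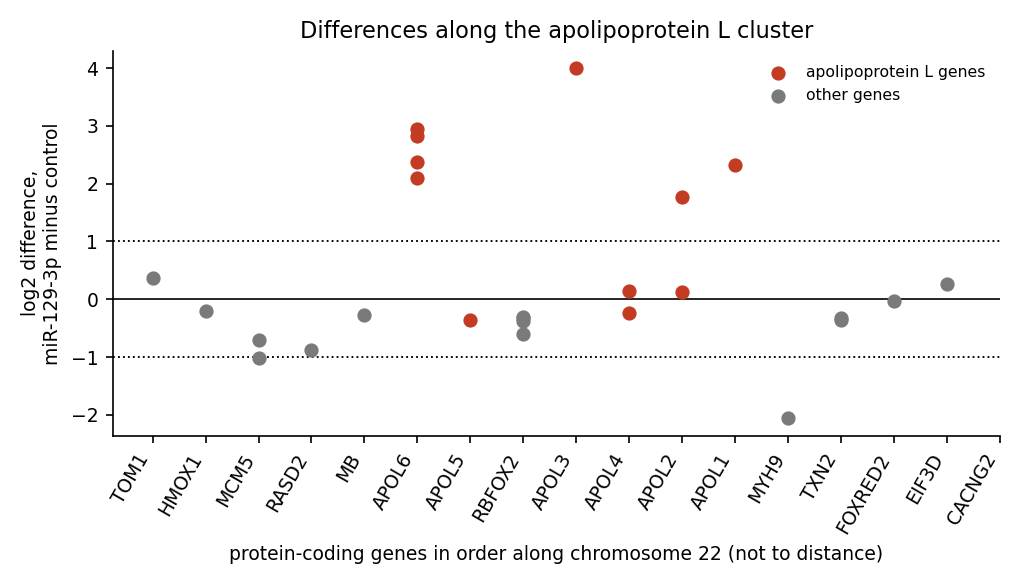
Log2 difference (miR-129-3p minus control) of each probe set with a signal of 100 or more, for protein-coding genes in their order along chromosome 22, with apolipoprotein L genes in red, other genes in grey and dotted lines at 2-fold. The red points at or above 1.77 are interrupted by APOL5, RBFOX2 and APOL4, which lie near or below 0. APOL2 has a second red point, 221013_s_at, at 0.12. MYH9, next to APOL1, is the lowest point at -2.06, and CACNG2 had no probe set at 100.

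Genes that carry the signals known to raise APOL genes were compared from a list of 18, of which 16 had a probe set of their own and all 16 reached 100. Of these 7 were at least 2-fold higher and 0 lower by that much, with a median of 0.90. Over all genes above that signal 7.83% were higher and 4.56% lower by 2-fold, with a median of 0.03. TLR3, the endosomal sensor of double-stranded RNA, read 104 on the control array and 3020 on the miR-129-3p array, a difference of 4.66, with its 3 probe sets between 2.78 and 4.66. IFIH1 and RIGI, the cytosolic sensors of double-stranded RNA, differed by 4.49 and 3.23 on their brightest probe sets, with ranges of 1.70 to 4.49 and 3.23 to 3.99 over 3 probe sets each, and IRF7, a transcription factor that drives type I interferon genes, by 4.07.

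Other steps of the same pathway differed less. IRF1, a transcription factor of interferon responses, read 688 on the control array and 2248 on the miR-129-3p array, a difference of 1.69. IRF9, the DNA-binding part of the complex that acts after type I interferon, differed by 1.91, and JAK2, a kinase of the type II receptor, by 1.76. At the other end stood the kinase JAK1 at -0.30, the receptor chain IFNAR1 at -0.22, the kinase TYK2 at 0.25 and TICAM1, the TLR3 adaptor, at 0.27. Between these ends stood the receptor chains IFNGR2 at 0.89, IFNAR2 at 0.34 and IFNGR1 at 0.30, and the factors IRF2 at 0.91 and IRF3 at 0.50. Receptor chains and kinases were thus mixed, with JAK2 past 2-fold and JAK1 and IFNAR1 below 0 by less than the pooled SD of 0.37. IFNAR1 ran from -0.22 to 0.11 over its 3 probe sets above the rule. This list was drawn up with the interferon result of these arrays known and is not independent evidence of its direction.

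The guanylate-binding proteins GBP1 to GBP5 are interferon-induced GTPases that coat bacteria, and GBP1 helps APOL3 reach them. All 5 reached a signal of 100, 3 were at least 2-fold higher and the median of the 5 was 1.61. Of all genes above that signal, 7.83% were higher by 2-fold, and their median was 0.03. GBP5 differed by 3.10, but by 0.95 on its other probe set, which was below 100. GBP2 differed by 2.13, GBP4 by 1.61 and GBP3, the lowest of the 5, by 0.38. GBP4 and GBP5 reached 100 with miR-129-3p alone, from control signals of 40.8 and 11.6, so they could only differ upward, and GBP4 sets the median. GBP1 read 2070 on the control array and 3403 on the miR-129-3p array, a difference of 0.71, with its 3 probe sets above the rule between 0.71 and 1.10.

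Genes whose products work with APOL1 or APOL3 formed a list of 15, of which 14 had a probe set of their own and 11 reached 100. None of the 11 was at least 2-fold higher or lower on its brightest probe set, and the median was 0.10. Against the 7.83% and 4.56% of all genes this count is near the background. GBP1, also in this list, stood highest at 0.71, and its probe set 202269_x_at was past 2-fold at 1.10. PI4KB, a Golgi lipid kinase linked to APOL3, stood at 0.66 to 0.72 on 3 probe sets. SNX2, a sorting nexin of endosomes, stood at 0.69. NCS1, a calcium sensor that activates PI4KB, stood at -0.40, and HP, the haptoglobin gene, at -0.36. HPR, haptoglobin-related protein, which circulates with APOL1 in the trypanosome-lytic particle, read 50.2 and 43.3, under the signal rule.

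Apolipoproteins of the lipoprotein particles, with clusterin and others, were listed to set them beside the APOL genes. Of 18 listed, 17 had a probe set of their own and 10 reached 100, with 0 higher and 0 lower by 2-fold, also near the background, and a median of -0.22. CLU, the secreted chaperone clusterin, was at the upper end with 207 on the control array and 392 on the miR-129-3p array, a difference of 0.87. APOM, a carrier of sphingosine-1-phosphate, was at the lower end with 501 and 265, a difference of -0.88, but of -0.35 on its other probe set. APOA1, the main protein of high-density lipoprotein, read 131 and 111, and APOE, a ligand of lipoprotein receptors, 187 and 175. APOO and APOOL, which carry the name but belong to a complex of the mitochondrial inner membrane, stood at 0.33 and -0.65. The 4 APOOL probe sets ran from -0.65 to 0.18.

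**Figure D4:**
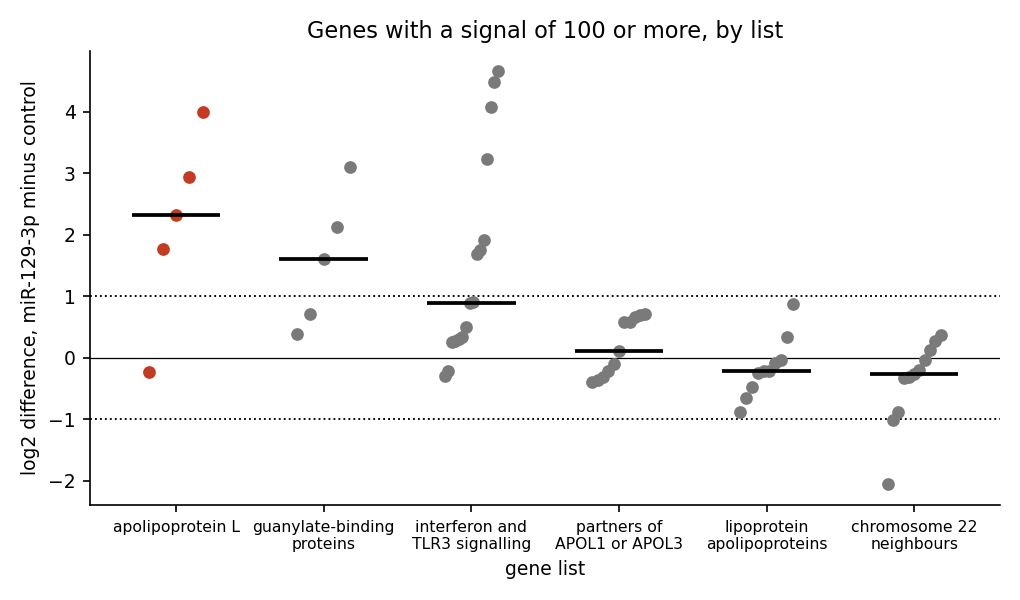
Log2 difference (miR-129-3p minus control) of each gene that reached a signal of 100, by gene list, with a black bar at the list median and dotted lines at 2-fold. The medians are 2.32 for the apolipoprotein L genes, 1.61 for the guanylate-binding proteins, 0.90 for interferon and TLR3 signalling, 0.10 for partners of APOL1 or APOL3, -0.22 for the lipoprotein apolipoproteins and -0.27 for the listed chromosome 22 neighbours.

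For each APOL gene, the 2 genes with the nearest pair of log2 levels over the 2 arrays were found by Euclidean distance. Levels of different probe sets are not on a common scale, so this is a likeness of readings. APOL1 lay nearest to CAPN3 (distance 0.04) and LURAP1L (0.11). APOL2, taken here by 221653_x_at, 1 of its 2 disagreeing probe sets, lay nearest to MYD88 (0.07) and GTPBP1 (0.09). APOL3 lay nearest to PDE4B (0.04) and BMPER (0.14). APOL6 had more distant neighbours, CXCL16 (0.20) and IL18BP (0.22). The genes nearest to APOL4, TESPA1 and TKFC, lay within 0.02 of it.

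The labelled cell type and other possible sources of APOL RNA were checked by marker lists. Of 12 retinal pigment epithelium markers 7 reached 100, among them KRT8 (6138 on the control array and 4918 on the miR-129-3p array) and OTX2 (1452 and 1625). RDH5 read 169 and 197. TTR, at 91 and 110, reached 100 with miR-129-3p alone. MITF, a transcription factor of pigment cells, differed by -1.26 (2470 and 1020), KRT18 by -0.96 (5787 and 2972) and PMEL, a melanosome protein, by 0.92 (114 and 229). The other 5 were under 100 on both arrays, among them 4 genes of the mature epithelium, with RPE65 at 6.44 and 6.66, RLBP1 at 51.8 and 44.4, TYR at 74.6 and 67.7 and BEST1 at 82.3 and 93.6. APOL genes are also expressed in endothelium and podocytes. The sums that follow take each marker by its brightest probe set. Endothelial markers, 8 genes of which 3 reached 100, summed to 710 on the control array and 716 on the miR-129-3p array. Among them CDH5 read 26.4 and 17.95, and KDR 59.6 and 90.6. PECAM1 read 230 and 270 on its brightest probe set, but differed by 1.10 on 208982_at, from 57.7 to 142, by 1.26 on 208983_s_at, from 7.57 to 40.3, and by 0.58 on 208981_at. Of 10 blood cell markers 7 had a probe set of their own, summing to 415 and 404, with PTPRC at 36.9 and 41.0. Of 5 podocyte markers 4 were read, summing to 2748 and 1410. The 2 of these that reached 100 were lower on their brightest probe sets, SYNPO with 1630 and 657 and PODXL with 982 and 612. SYNPO was not lower on its other probe sets above the rule, at 0.09 on 235128_at and 0.06 on 235914_at. NPHS1 read 65.5 and 67.9. The part of other cell types in the APOL signals was not tested.

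The arrays had median signals of 96.5 on the control array and 98.0 on the miR-129-3p array, and 48.9% and 49.4% of probe sets reached 100. In RNA from a culture, a change in every cell and a change in some cells cannot be told apart.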

How the data were processed

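The authors deposited linear intensities of 54613 probe sets on each of the 2 arrays. MAS5 and RMA stand in the submitters' processing notes, which do not say which of them made the values or what scaling was applied. Background correction, versions and detection calls are not given in the sources used here, and any upstream compression of low intensities would alter the differences of dim APOL probe sets. With 2 arrays, their number limits the precision.

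Groups came from the genotype field of the labels. Gene names came from the annotation of the array platform: 41091 had 1 gene symbol, 1801 several and 11721 none listed, and gene IDs of 41037 matched the RefSeq table of GRCh38.p14, used for symbols and gene order. Intensities were analysed as log2(value + 16), with a signal rule of 100 on the brighter array and a limit of 2-fold. A gene was represented by its brightest probe set on average. No p-value was computed, since genes are not replicates. All APOL probe sets were named whatever their values, and from each list up to 4 members at each end, besides immediate neighbours of APOL genes. A few further genes were named for their role after their values were seen: APOE, HPR, other members of the interferon list and the single markers. The members, the lists and these choices were made with earlier results of these data known. Promoter motifs and protein identity of the family were planned and not analysed here.

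Alternatives were median centring, a loess trend, quantile normalization, constants of 1 and 64, other signal rules and fold limits, means over probe sets, and leaving out probe sets by name ending. Code was tested on simulated data. The software was pandas 2.3.3 and numpy 2.4.6 under Python 3.11.15, with statsmodels 0.14.6 for loess and matplotlib 3.10.9 for plots.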

Additional observations from a re-analysis of the deposited data

How the results depend on the processing

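The count of 7 APOL probe sets at least 2-fold higher was 6 or 7 under median centring, the loess trend, quantile normalization, constants of 1 and 64, limits of 1.5-fold and 3-fold, no signal rule, a mean signal of 200, and without _x_at names. It was 4, all of APOL6, without _x_at and _s_at names, and 3 with a signal of 100 required on the control array, an alternative chosen after seeing the data, as was leaving out _x_at names alone. The count of 4 genes was 3 or 4 throughout, except 1, APOL6, without _x_at and _s_at names, since those endings cover all APOL1, APOL2 and APOL3 probe sets. The family median of 2.32 ranged from 1.99 to 2.45. Of 66 recomputed probe set differences, 55 moved by less than the pooled SD of 0.37, 11 moved by more and 0 of the called ones changed sign. APOL3 moved most, from 3.996 to 4.67 with a constant of 1, 2.94 with 64 and 2.41 with signals under 100 set to 100. Of 20 recomputed list counts 17 stayed within 1.5 times and 3 moved, all at a limit of 1.5-fold. The scalings shifted the median of all probe sets above the rule by -0.06 to 0.02. Dim control signals and the absence of replicates limit the family's values. No paired analysis was possible because each group has 1 array.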

Other observations

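CLU, the secreted chaperone clusterin, was higher on all 3 of its probe sets above 100, by 0.73 to 0.996, a range that the brightest probe set alone does not show. MITF read 1551 and 902 on its second probe set above 100, a smaller difference of -0.77. These genes were picked once their values were known.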
